A study of Homo sapiens with 4 samples.

Results

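Transcripts of 10 growth factor receptors relevant to prostate cancer were examined in LNCaP cells, a human prostate cancer line that responds to androgen. The receptors were EGFR, ERBB2, ERBB3 and ERBB4, the insulin-like growth factor and insulin receptors IGF1R and INSR, the fibroblast growth factor receptors FGFR1, FGFR2 and FGFR3, and MET. Every probe set that the platform annotation assigns to one of these genes alone was taken, which gave 39 of the 22215 probe sets on the array that are not controls, for 10 of the 11963 genes named there. The MED1 group received a MED1 expression plasmid by lipofection (MED1 belongs to Mediator, the complex through which many transcription factors reach RNA polymerase II), and the other group received the empty vector in the same way. Each group had 2 samples, grown in medium with 10% fetal bovine serum and taken 24 hours after transfection. Transfection was transient, so the arrays average cells that took up the vector and cells that did not, and the share of each is not given in the sources used here. In GEO's labels the descriptions of the control samples mention the MED1 vector, but their titles and transfection entries say empty, and these were followed.

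Receptor tyrosine kinases span the plasma membrane, bind a growth factor outside the cell and phosphorylate tyrosines inside it. The phosphotyrosines recruit adaptors that start the RAS to ERK cascade and the PI3K to AKT pathway. In prostate cancer, signals from ERBB2 with ERBB3, from IGF1R and from FGFR1 are known to act beside the androgen receptor.

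The values are MAS5 signals, a summary of the probes of a probe set on a linear scale. Between the groups, 1 of the 2 MED1 probe sets was higher in MED1 samples (559 and 807, against 292 and 315 in empty vector samples, adjusted p = 0.032), and the brighter one did not pass (1172 and 1074 in MED1 samples, against 1097 and 1011 in empty vector samples, adjusted p = 0.83). The dimmer one did not pass without the intensity trend (adjusted p = 0.358), with no filter (adjusted p = 0.381) or without empty vector replicate 1 or 2 (adjusted p = 0.0607 and 0.0869). Of the prostate luminal markers, 7 of 9 were measured and all 7 had a probe set above the filter described next. Their summed signal was 27323 and 29570 in MED1 samples and 29371 to 31447 in empty vector samples. Markers of basal, fibroblast, and endothelial or leukocyte cells each had 1 gene above the filter, with summed signals of at most 368 in MED1 samples and 353 in empty vector samples. Pearson's r over tested probe sets was 0.992 within the MED1 pair, 0.990 within the empty vector pair and 0.986 to 0.991 between the groups.

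The receptors differed in how many of their probe sets were bright enough to test. A probe set that averaged under 31.0, the 40th percentile of the array, was not tested, and 18 of the 39 receptor probe sets lay above that level. They covered 8 of the 10 genes. ERBB4 and MET had no probe set above it, and INSR was the only receptor with none below it. The member nearest above the filter was an INSR probe set with a mean signal of 34.8, and the nearest below it was a MET probe set at 23.2. Probe sets differ in how strongly they hybridise, so a signal does not order the receptors by transcript number. The brightest probe set of each gene lay at percentile 86.3 of the array for ERBB3, 76.4 for ERBB2, 74.5 for INSR, 74.4 for IGF1R, 64.9 for FGFR3, 62.5 for EGFR, 54.0 for FGFR1 and 49.8 for FGFR2. For MET it lay at percentile 36.1 and for ERBB4 at 21.1.

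**Figure D1:**
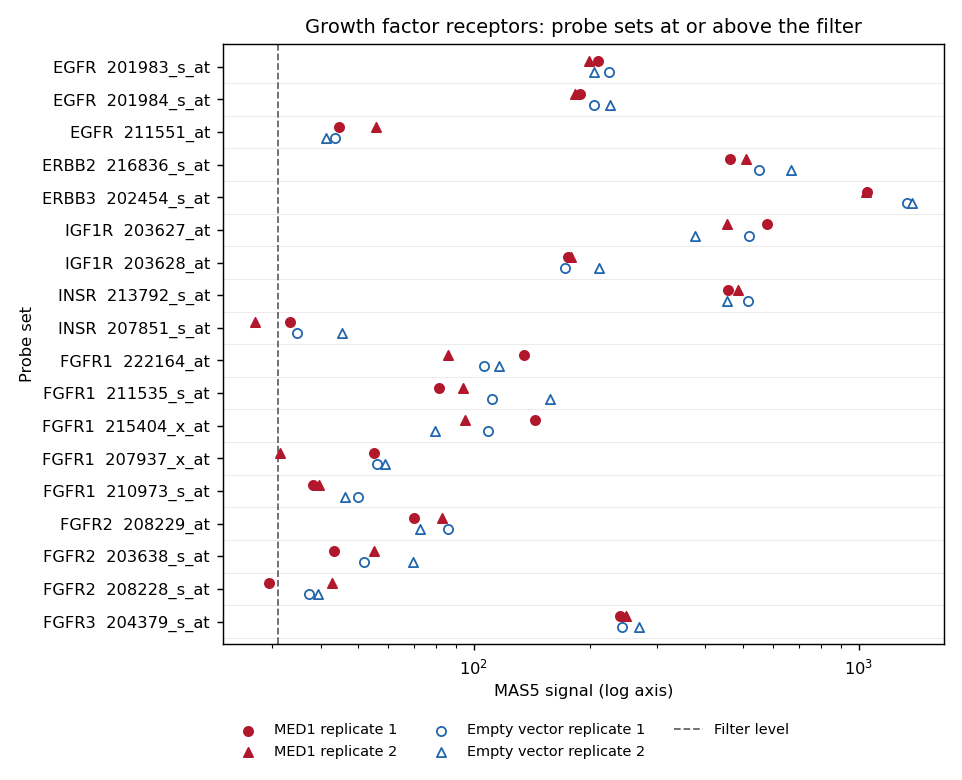
MAS5 signal (log axis) of the 18 receptor probe sets at or above the filter, with 1 point per array, red filled for MED1 and blue open for empty vector; the dashed line is the filter level. Both ERBB3 points of the MED1 samples (1053 and 1047) lie left of both empty vector points (1334 and 1374), and most other rows overlap or nearly touch.

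The sequences just upstream of 4 receptors are shown because their brightest probe sets stand on either side of that level. Those of ERBB2 and IGF1R were read well above the filter, and those of ERBB4 and MET below it. ERBB2 and IGF1R each had another probe set below it. Each is the 250 bases before an annotated start in RefSeq (GRCh38.p14), 5′ to 3′ on the gene's own strand, at chr17:39687844-39688093 (plus), chr15:98648289-98648538 (plus), chr2:212538803-212539052 (minus) and chr7:116671946-116672195 (plus). A gene can have other starts, so a window need not hold its main promoter. Capitals mark matches on either strand to the GC box GGGCGG that SP1 binds, the CCAAT box, the TATA box TATAAA, the androgen receptor half-site AGAACA and the nuclear receptor half-site AGGTCA.
ERBB2: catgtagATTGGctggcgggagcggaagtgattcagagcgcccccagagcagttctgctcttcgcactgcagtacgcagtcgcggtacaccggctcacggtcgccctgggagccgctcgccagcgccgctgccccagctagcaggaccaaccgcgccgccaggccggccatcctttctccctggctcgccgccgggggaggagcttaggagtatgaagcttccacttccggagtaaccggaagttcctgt
IGF1R: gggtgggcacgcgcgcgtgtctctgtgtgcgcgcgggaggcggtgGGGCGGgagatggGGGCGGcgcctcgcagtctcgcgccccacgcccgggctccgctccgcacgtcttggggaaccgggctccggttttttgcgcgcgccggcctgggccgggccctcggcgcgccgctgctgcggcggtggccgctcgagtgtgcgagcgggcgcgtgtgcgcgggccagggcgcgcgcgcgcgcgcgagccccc
ERBB4: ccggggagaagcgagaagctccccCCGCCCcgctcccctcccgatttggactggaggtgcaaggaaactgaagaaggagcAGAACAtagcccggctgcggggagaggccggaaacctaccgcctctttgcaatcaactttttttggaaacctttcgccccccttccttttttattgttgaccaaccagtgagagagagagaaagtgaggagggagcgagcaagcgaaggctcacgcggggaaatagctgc
MET: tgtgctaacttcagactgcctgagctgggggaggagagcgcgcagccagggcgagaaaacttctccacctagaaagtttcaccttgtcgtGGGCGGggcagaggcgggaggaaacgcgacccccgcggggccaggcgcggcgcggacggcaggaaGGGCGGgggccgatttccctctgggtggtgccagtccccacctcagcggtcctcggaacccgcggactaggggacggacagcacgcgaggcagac
In these windows IGF1R and MET had 2 GC boxes each and ERBB4 had 1, while ERBB2 had none and 1 CCAAT match on the opposite strand. ERBB4 alone of the 4 had a match to the androgen receptor half-site. Over all 35116 such windows, 42.6% held a GC box, 32.0% a CCAAT box, 10.7% the TATA box, 12.4% the androgen receptor half-site and 12.1% the nuclear receptor half-site. The windows of ERBB2, IGF1R and MET held 23, 48 and 24 CpG dinucleotides and that of ERBB4 held 14, where the median of all windows was 11. Windows were taken for 8 of the 10 genes. ERBB3 had no entry in the set of windows used, and the chromosome that holds FGFR1 was left out.

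None of the receptors passed the test between MED1 and empty vector. Of 18 tested receptor probe sets 0 passed an adjusted p of 0.05 (limma, Benjamini-Hochberg over 13329 probe sets), where 0.293% of all tested probe sets did, 0.105% higher and 0.188% lower in MED1 samples. At an unadjusted p of 0.05, 3 of the 18 passed, from ERBB3, ERBB2 and FGFR1, all lower in MED1 samples, where 9.2% of all tested probe sets passed in either direction and 5.2% in that one. Log2 fold changes ran from -0.53 to 0.29 with a median of -0.09, beside -0.02 over all tested probe sets. The value was below 0 for 15 of the 18, against 53.5% of all. The arrays of the groups did not overlap for 8 of the 18 (39.8% of all): the MED1 arrays were the lower pair for 7 (22.6% of all) and the higher pair for 1 (17.2% of all). These probe sets come from 8 genes measured on the same 4 arrays, so such counts describe the receptors and were not tested. The 95% intervals of the log2 fold changes reached 0.21 to 0.60 on either side. With 2 arrays a group, their width rests mostly on the spread of other probe sets of similar signal. With 2 arrays against 2, exact permutation of any 1 probe set cannot give a two-sided p below 0.333.

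**Figure D2:**
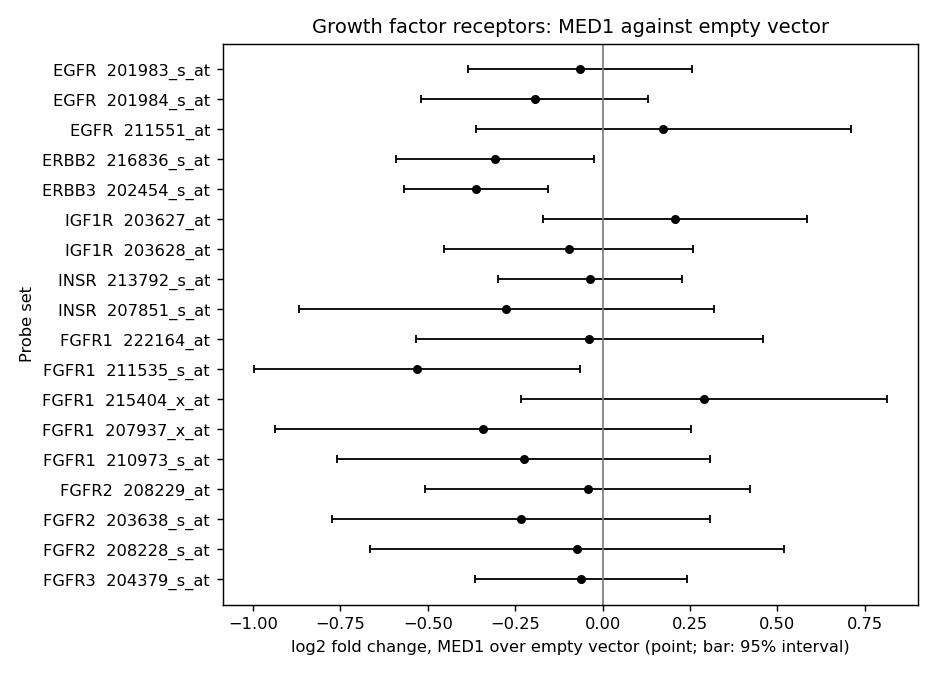
Log2 fold change (MED1 over empty vector, on the log2(signal + 16) scale) of the 18 tested receptor probe sets, with bars for the 95% interval of the limma fit. The intervals of ERBB3, ERBB2 and 1 FGFR1 probe set lie below 0 before adjustment, and the other 15 include 0.

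ERBB3 had the lowest p of the receptors. It binds neuregulins, has very weak kinase activity of its own, and passes signals to PI3K when paired with ERBB2. Its probe set 202454_s_at read 1053 and 1047 in MED1 samples, against 1334 and 1374 in empty vector samples. The pairs did not overlap, and the arrays within each pair differed by less than 0.05 on the log2 scale (-0.01 in MED1 samples and 0.04 in empty vector samples). The log2 fold change was -0.36 ± 0.09 (SE; 95% interval -0.57 to -0.16), or 0.778 times the empty vector level, with an adjusted p of 0.261. A second ERBB3 probe set, 215638_at, lay below the filter at 17.5 and 19.4 in MED1 samples, against 20.7 and 25.4 in empty vector samples.

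ERBB2 has no known ligand of its own and serves as the preferred partner of the other ERBB receptors. Its probe set 216836_s_at read 462 and 511 in MED1 samples, against 550 and 667 in empty vector samples. The groups did not overlap, but the empty vector arrays differed from each other by 0.27 on the log2 scale, close to the difference between groups. The log2 fold change was -0.31 ± 0.13 (SE; 95% interval -0.59 to -0.02; adjusted p = 0.497). Without empty vector replicate 2 it was -0.17, and without empty vector replicate 1 it was -0.44. The other ERBB2 probe set, 210930_s_at, read 2.30 and 1.95 in MED1 samples, against 4.14 and 4.27 in empty vector samples, near the bottom of the array.

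EGFR, the receptor for EGF and TGF-alpha, had 3 tested probe sets, of which 0 passed and which did not point one way. Probe set 201983_s_at read 211 and 199.9 in MED1 samples, against 225 and 206 in empty vector samples, a log2 fold change of -0.06 (95% interval -0.38 to 0.26). For 201984_s_at the signals were 189 and 183 in MED1 samples and 205 and 226 in empty vector samples (-0.19, interval -0.52 to 0.13). The arrays overlapped for the first of these and did not for the second, whose difference was larger than those within its groups (-0.05 in MED1 samples and 0.13 in empty vector samples). The dimmer 211551_at was on the other side without overlap, at 44.7 and 55.7 in MED1 samples and 43.6 and 41.4 in empty vector samples (0.17, interval -0.36 to 0.71). The remaining 3 EGFR probe sets read 2.39 to 7.36 across the arrays.

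ERBB4, a neuregulin receptor with an active kinase, had no probe set above the filter. Probe set 214053_at read 17.6 and 15.8 in MED1 samples, against 1.51 and 2.09 in empty vector samples. The groups did not overlap, yet all 4 values lay under the filter level. With no filter on dim probe sets its log2 fold change was 0.88 ± 0.18 (SE; adjusted p = 0.538), a size that the pseudocount of 16 holds down. Probe set 206794_at read 24.8 and 6.40 in MED1 samples and 6.88 and 2.22 in empty vector samples, and overlapped. Among receptor probe sets below the filter, the MED1 arrays were the higher pair for 5 of 21 and the lower pair for 5 of 21, where the shares of all 8886 such probe sets were 13.3% and 20.5%. No detection calls were used, so these low signals have no known background to be set against.

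IGF1R and INSR are related receptors that bind the insulin-like growth factors and insulin and act through the IRS docking proteins. IGF1R probe set 203627_at read 578 and 456 in MED1 samples, against 519 and 377 in empty vector samples. The groups overlapped, and in each the array numbered 1 was the higher. The difference between arrays of a group, -0.33 on the log2 scale in MED1 samples and -0.44 in empty vector samples, was larger than that between groups, 0.21 ± 0.17 (SE; 95% interval -0.17 to 0.59). The direction rested on single arrays, since without empty vector replicate 2 the value was -0.01. A second IGF1R probe set, 203628_at, read 176 and 179 in MED1 samples and 172 and 212 in empty vector samples (-0.10, interval -0.45 to 0.26), and the third, 208441_at, lay below the filter at 14.5 to 29.0.

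INSR probe set 213792_s_at read 459 and 486 in MED1 samples, against 517 and 455 in empty vector samples. The groups overlapped fully and the log2 fold change was -0.04 ± 0.12 (SE), with a 95% interval of -0.30 to 0.23. The dimmer INSR probe set 207851_s_at read 33.4 and 27.1 in MED1 samples, against 34.8 and 45.4 in empty vector samples, a log2 fold change of -0.28 ± 0.26.

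The FGF receptors bind fibroblast growth factors together with heparan sulfate, and alternative splicing gives forms with different ligand preference. FGFR1 had 5 tested probe sets, which did not point one way. Probe set 211535_s_at read 81.1 and 93.7 in MED1 samples, against 112 and 158 in empty vector samples. It had the lowest value among the tested receptor probe sets, -0.53 ± 0.21 (SE; 95% interval -0.997 to -0.06; adjusted p = 0.474). It moved to -0.31 without empty vector replicate 2 and -0.76 without empty vector replicate 1. In the opposite direction, 215404_x_at read 144 and 95.2 in MED1 samples and 109 and 79.5 in empty vector samples (0.29, interval -0.23 to 0.81). Of the other 3, 207937_x_at gave -0.34 and 210973_s_at -0.23, both without overlap of the arrays, and 222164_at gave -0.04 with overlap. The suffix _x_at marks probe sets that may match other transcripts too. The sixth FGFR1 probe set, 207822_at, read 2.65 to 10.96.

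FGFR2 had 10 probe sets, of which 3 were tested, and none of the 3 had groups that did not overlap. The brightest, 208229_at, read 69.8 and 82.7 in MED1 samples, against 85.6 and 72.4 in empty vector samples (-0.04, 95% interval -0.51 to 0.42). Probe set 203638_s_at gave -0.23 and 208228_s_at -0.07, each with an interval that includes 0. The 7 FGFR2 probe sets below the filter ranged from 0.648 to 41.4 over single arrays, and 211398_at among them read 10.5 and 16.002 in MED1 samples, against 41.4 and 23.6 in empty vector samples. FGFR3 had 1 tested probe set, 204379_s_at, at 239.8 and 248 in MED1 samples, against 243 and 269 in empty vector samples. Its log2 fold change was -0.06 ± 0.13 (SE; 95% interval -0.37 to 0.24), and its dim probe set 204380_s_at read 4.20 to 22.1.

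MET, the receptor for hepatocyte growth factor, is known to be held down by the androgen receptor in prostate cells. Its 4 probe sets read 1.12 to 33.5 across the arrays, and none reached the filter on average. The highest, 211599_x_at, read 33.5 and 9.75 in MED1 samples, against 22.1 and 32.9 in empty vector samples. The 3 others differed in direction: 213816_s_at read 9.43 and 8.39 in MED1 samples and 5.67 and 1.12 in empty vector samples, while 213807_x_at read 4.06 and 11.7 in MED1 samples, against 12.997 and 25.05 in empty vector samples. The fourth, 203510_at, read 8.21 and 12.2 in MED1 samples, against 10.6 and 1.85 in empty vector samples.

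**Figure D3:**
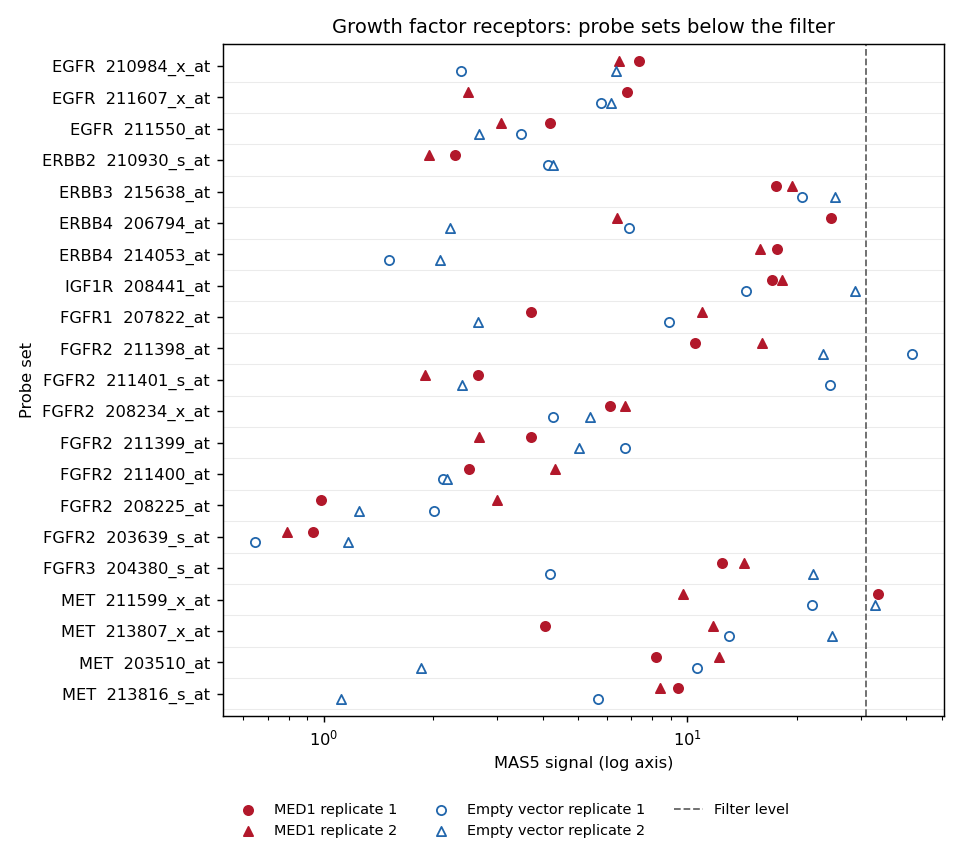
MAS5 signal (log axis) of the 21 receptor probe sets below the filter, with 1 point per array, red filled for MED1 and blue open for empty vector; the dashed line is the filter level. ERBB4 214053_at stands out with MED1 points at 17.6 and 15.8 and empty vector points at 1.51 and 2.09, and the MET points scatter from 1.12 to 33.5 in no common direction.

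The genes that supply, assist and restrain these receptors were read from 8 lists, with 1 probe set a gene, the tested one with the highest mean. Of 126 listed genes 62 were tested and 0 passed in either direction (limma, Benjamini-Hochberg), while 12 of the 62 (19.4%) passed at an unadjusted p of 0.05, where 0.293% and 9.2% of all tested probe sets passed. Each count at an unadjusted p in the lists below stands beside that same 9.2%. That share covers all tested probe sets, with dim ones and several a gene included, so it is not a like-for-like share. The median log2 fold change over the 62 genes was -0.05, beside -0.02 over all tested probe sets. The examples below are the genes of highest signal in each list unless said otherwise.

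Of the ERBB ligands 3 of 10 were tested and 0 passed, also at an unadjusted p of 0.05, with a median of -0.26. TGFA, an EGFR ligand, read 72.8 and 72.99 in MED1 samples, against 92.3 and 92.97 in empty vector samples (log2 fold change -0.29 ± 0.19). HBEGF, which binds EGFR and ERBB4, gave -0.26 ± 0.17 and, by a second probe set, -0.08, and EGF gave -0.26 ± 0.26. In the list of IGF ligands and binding proteins 5 of 10 were tested and 0 passed, 3 at an unadjusted p of 0.05, with a median of 0.05. IGFBP2, a secreted carrier of IGFs, read 1153 and 1278 in MED1 samples, against 1486 and 1592 in empty vector samples (-0.34 ± 0.10, adjusted p = 0.327). IGFBP3, the main carrier in blood, read 221 and 251 in MED1 samples, against 154 and 176 in empty vector samples (0.48 ± 0.15, adjusted p = 0.386). A second, dimmer IGFBP3 probe set read 47.7 and 72.3 in MED1 samples, against 18.7 and 80.1 in empty vector samples. It overlapped and gave 0.38 ± 0.42. For the ligand IGF1 the brightest probe set gave -0.37, and 3 others gave 0.10, -0.20 and -0.11. IGF2R, a decoy that clears IGF2, gave 0.18 and -0.03 by its 2 probe sets.

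Among FGF ligands, HGF and MST1, 4 of 19 were tested and 0 passed, 1 at an unadjusted p of 0.05, with a median of 0.15. That 1 was FGF13, an intracellular member that does not signal through FGF receptors, at 349 and 293 in MED1 samples and 248 and 198 in empty vector samples (0.50 ± 0.16, adjusted p = 0.376). HGF itself gave 0.03 ± 0.27, FGF6 -0.52 ± 0.26, and MST1, the ligand of the MET relative MST1R, 0.28 ± 0.26. FGF6 read 23.6 and 26.7 in MED1 samples, against 40.1 and 46.3 in empty vector samples. Only its empty vector arrays lay above the filter level. The related receptors and co-receptors had 6 of 13 tested and 0 passing, 1 at an unadjusted p of 0.05, with a median of -0.15. SDC4, a heparan sulfate carrier, read 552 and 509.9 in MED1 samples, against 655 and 740.5 in empty vector samples (-0.38 ± 0.11, adjusted p = 0.327). SDC1 gave -0.28 and -0.06 by its 2 probe sets, and NRP1 gave -0.03 and 0.15. SDC2 gave 0.03, 0.25 and 0.29 by its 3, the last without overlap of the arrays. FGFR4, the remaining FGF receptor kinase, named outside the rule for examples, read 58.97 and 59.7 in MED1 samples, against 82.1 and 85.2 in empty vector samples (-0.40 ± 0.20, adjusted p = 0.588).

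Adaptors and docking proteins had 15 of 19 tested and 0 passing, 1 at an unadjusted p of 0.05, with a median of -0.03. PTPN11, the phosphatase SHP2, gave 0.09 ± 0.10 and, by 3 dimmer probe sets, 0.06, -0.03 and -0.26. SHC1 gave -0.03 ± 0.09 and 0.28, GRB10 -0.08 ± 0.10, -0.32 and -0.15, and CRKL 0.21 ± 0.10 and 0.23. The GRB10 probe set at -0.32, not the one counted, had an unadjusted p of 0.047 (limma). FRS3, a docking protein of FGF receptors named after its values were seen, read 21.8 and 27.8 in MED1 samples, against 57.4 and 89.99 in empty vector samples (-1.12 ± 0.27, adjusted p = 0.239). Both MED1 values lay under the filter level of 31.0, so this probe set was tested only through its empty vector arrays. In the PI3K and RAS list 11 of 21 were tested and 0 passed, 3 at an unadjusted p of 0.05 (9.2% of all tested probe sets), with a median of -0.11. PIK3R1, the regulatory subunit of PI3K that binds phosphotyrosine, read 1251 and 1254 in MED1 samples, against 1630.0 and 1485 in empty vector samples (-0.31 ± 0.10, adjusted p = 0.366). Its other 2 probe sets gave -0.39 and -0.50, so all 3 lay on the same side. MAP2K1 gave -0.01 ± 0.09, PIK3R3 -0.06 ± 0.10 and HRAS -0.15 ± 0.12. The others under that p, named after their values were seen, were MAPK3 and PDPK1. MAPK3, the kinase ERK1, gave -0.55 (adjusted p = 0.270) by 212046_x_at, whose suffix marks possible matches to other transcripts. PDPK1, which phosphorylates AKT, gave -0.27 (adjusted p = 0.474), with -0.08 and 0.10 by its other probe sets.

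Proteins of receptor feedback, trafficking and degradation had 15 of 22 tested and 0 passing, 3 at an unadjusted p of 0.05 (9.2% of all tested probe sets), with a median of -0.09. The tyrosine phosphatase PTPRF gave -0.02 on its brightest probe set, but -0.40 and -0.44 on the next 2 and 0.07 on the dimmest. The next 2 had unadjusted p of 0.0045 and 0.0039 (limma), but PTPRF was counted by its brightest probe set. STUB1 gave -0.05, TSG101 0.05, and SOCS2 0.01 and -0.11. By the probe set counted, 3 genes were under an unadjusted p of 0.05, and they are named after their values were seen. They were LRIG1, which directs ERBB receptors to degradation, RNF41, a ubiquitin ligase of ERBB3, and DUSP4, a phosphatase of ERK. LRIG1 read 1003 and 1037 in MED1 samples, against 1255 and 1585 in empty vector samples (-0.46 ± 0.12, adjusted p = 0.270). RNF41 read 296 and 315 in MED1 samples, against 355 and 479 in empty vector samples (-0.42 ± 0.15, adjusted p = 0.455). Its second probe set read 284 and 264 in MED1 samples, against 408 and 412 in empty vector samples (-0.55 ± 0.12, adjusted p = 0.181). For DUSP4 the signals were 146 and 199 in MED1 samples and 292 and 243 in empty vector samples (-0.60 ± 0.18, adjusted p = 0.333), and 0.05 by a second probe set. The ERBB2 gene lies on 17q12, where it is 8 protein-coding genes from MED1 in RefSeq order. Of 13 other genes around it 4 were tested and 0 passed, also at an unadjusted p of 0.05, with a median of -0.02. PGAP3 gave -0.02 and 0.18 by its 2 probe sets, CDK12 0.19 and 0.16, STARD3 -0.02 and GRB7 -0.34 ± 0.29.

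**Figure D4:**
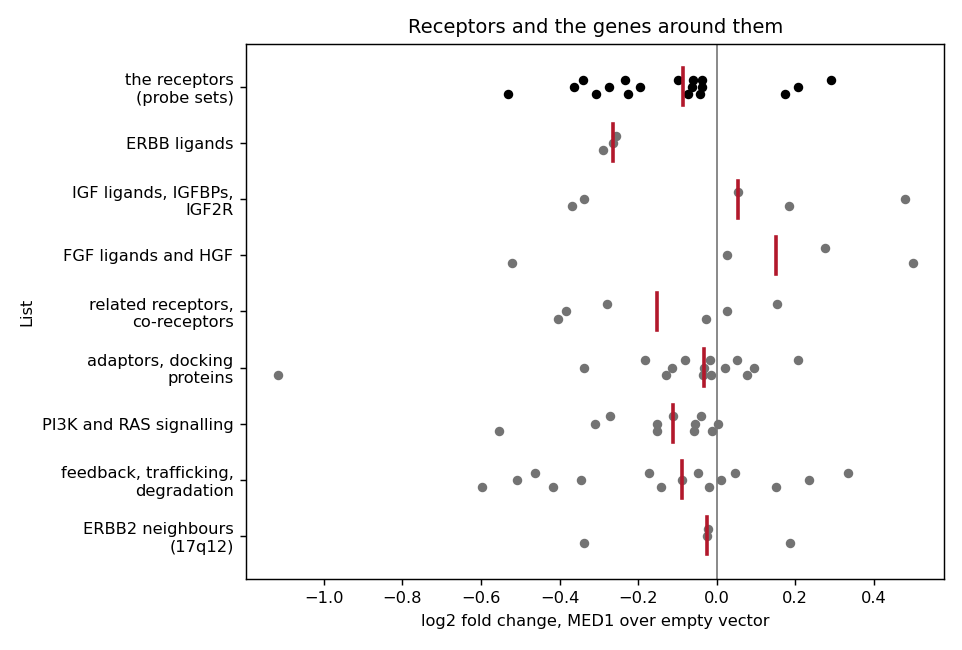
Log2 fold change (MED1 over empty vector) of the 18 tested receptor probe sets, in black, and of the tested genes of 8 lists, in grey; the red bar is the median of each row. Medians run from -0.26 for the 3 ERBB ligands to 0.15 for the 4 genes tested in the list of FGF ligands, HGF and MST1. The point far to the left is FRS3 at -1.12, whose MED1 signals both lay under the filter level.

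**Figure D5:**
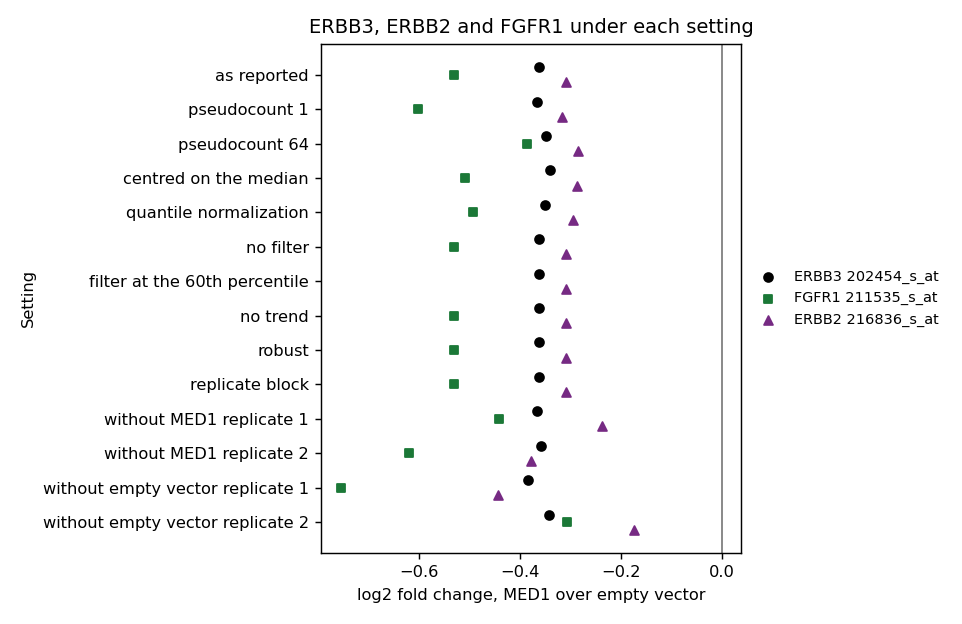
Log2 fold change (MED1 over empty vector) of the ERBB3, ERBB2 and FGFR1 probe sets with an unadjusted p under 0.05, under each setting of the analysis; FGFR1 has no point with the 60th-percentile filter, which it does not reach. ERBB3 stays between -0.38 and -0.34, while ERBB2 spans -0.44 to -0.17 and FGFR1 -0.76 to -0.31. Settings that change only the filter, the eBayes step or the block cannot move a point.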

How the data were processed

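Gene expression was measured on Affymetrix arrays in 4 samples, from 200.0 ng of total RNA each, per the labels. The deposited values are MAS5 signal intensities, 1 per probe set and array, made by the authors with MAS5, as the submitters' processing notes say without a version. Their 2% trimmed mean was 500.2 on all 4 arrays, so no further scaling was applied. Array medians were 79.0 and 77.4 in MED1 samples, against 80.2 and 83.2 in empty vector samples, so they lay lower in MED1 samples. Of 22277 probe sets, 62 controls were left out. The platform annotation named 1 gene for 19064 of the other 22215, several for 1043 and none for 2108, and symbols were updated through 19052 Entrez identifiers matched to RefSeq (GRCh38.p14). Signals were transformed to log2(value + 16), the scale of all fold changes, on which those of dim genes are understated. Probe sets with a mean (taken on that scale) under the 40th percentile, 8886 in all, were not tested. Groups were tested in R 4.3.3 by limma 3.58.1 (lmFit, eBayes with an intensity trend), two-sided, with Benjamini-Hochberg adjustment over 13329 probe sets and a threshold of 0.05. The fit borrowed 7.30 prior degrees of freedom beside 2 residual ones, so the spread behind each p is mostly that of other probe sets of similar signal. SEs and intervals are those of limma. Whether the duplicates were separate cultures is not given, and p-values then reflect only how far these samples spread, possibly for technical reasons. The number of arrays limits the precision. The fit was tested on simulated data. The receptors, lists and settings were chosen with earlier results of these data known. Genes named from a list are those that pass and the 4 of highest mean signal, and others are identified as such. Both groups carry replicate numbers 1 and 2, which 2 pairs are too few to treat as pairing (same-numbered deviations correlated at 0.12). Some listed genes are not reported here because no probe set naming them alone was used.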

Additional observations from a re-analysis of the deposited data

How the results depend on the processing

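Of 18 receptor probe sets 0 passed under any of the 9 other settings of the fit (pseudocounts of 1 and 64, centring on the median, quantile normalization, no filter, a 60th-percentile filter, robust eBayes, eBayes with no trend, and the replicate block) or with any of the 4 arrays left out; with no filter, 0 of 39 passed. The lowest adjusted p was that of ERBB3 under the replicate block, 0.0535, and its range over all alternatives was 0.0535 to 0.538. With the replicate block the ERBB3 log2 fold change was -0.36, as without it. Each group holds both replicate numbers, so the block cannot change this value. Of all tested probe sets 39 passed, against 0 with no filter, 5 without the trend, 239 with the replicate block and 25 to 216 when leaving out an array. For the dimmer MED1 probe set the adjusted p was 0.358 without the trend, 0.381 with no filter, and 0.0607 and 0.0869 without empty vector replicates 1 and 2. Direction was kept under every alternative run by 11 of the 18 receptor probe sets, ERBB3, ERBB2 and all 3 of EGFR among them. The share over all tested probe sets was not counted, so the receptors cannot be called more or less stable than others. Settings that change only the filter, the eBayes step or the block leave each fold change as it was, so they could not turn a direction. Only the pseudocounts, centring, quantile normalization and left-out arrays could. Direction turned, with no call, in 1 case outside the left-out arrays, FGFR2 208229_at under quantile normalization (0.0166). With an array left out the values ranged from -0.0141 to 0.43 for IGF1R 203627_at, -0.24 to 0.0398 for IGF1R 203628_at, -0.12 to 0.0514 for INSR 213792_s_at, -0.32 to 0.25 for FGFR1 222164_at, -0.14 to 0.058 for FGFR2 208229_at, -0.26 to 0.11 for FGFR2 208228_s_at and -0.13 to 0.00643 for FGFR3. In the list of feedback, trafficking and degradation, 1 gene passed with the replicate block (LRIG1, adjusted p = 0.0264) and 0 to 1 with an array left out (DUSP4 without MED1 replicate 2, adjusted p = 0.0268). No other list gained a passing gene. The cause of these shifts was not tested.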

Other observations

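Of the 18 tested receptor probe sets 9 had the same array number higher within both groups, number 1 for 3 of them and number 2 for 6, and 9 did not. The share over all tested probe sets was not counted, so this shows nothing particular to the receptors. Over all tested probe sets the deviations of same-numbered arrays correlated at 0.12. IGF1R 203627_at and FGFR1 215404_x_at were among the 3 receptor probe sets with number 1 higher, and ERBB2 and FGFR1 211535_s_at among the 6 with number 2 higher.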
